A study of Homo sapiens with 19 samples.

Results

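Interleukin receptors are read here through the chromatin of 9 genes, IL4R, IL21R, IL2RG, IL10RA, IL10RB, IL6R, IL17RA, IL1R2 and IL13RA1, out of 20046 protein-coding genes annotated in GENCODE release 44 (hg38). The 9 genes were chosen by a list that grew from a measured value, with the results of these libraries known: a H3K4me2 region over IL21R, present with Corin and absent with DMSO, was the second widest of its kind. For each gene, peaks were read within 10 kb either side of its 5′ end and over its body, and IL4R and IL21R, neighbours on chromosome 16, were also read as one locus. Because the values that chose the genes come from the same libraries as those given below, every value is a description and none carries a test.

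Receptors of this group work in pairs at the cell surface. IL4R, the alpha chain for IL4, signals with IL2RG, the common gamma chain, or with IL13RA1, which binds IL13, and IL21R also needs IL2RG. IL10RA binds IL10 and recruits IL10RB, a chain shared with the receptors of IL22, IL26 and the lambda interferons, and these receptors pass their signal to JAK kinases and STAT transcription factors. IL6R binds IL6 and hands it to the signalling chain IL6ST, IL17RA is the common chain of the IL17 receptors and acts through the adaptor TRAF3IP2, and IL1R2 is a decoy that binds IL1 without signalling. In myeloid cells such receptors set the response to cytokines of the marrow and of inflamed tissue.

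The cells were MOLM-13, a human acute myeloid leukaemia line, profiled by CUT&RUN, in which an antibody directs a nuclease to cut out the chromatin fragments that carry a mark. One group received Corin, a compound that blocks both enzyme activities of the CoREST complex, the demethylase LSD1 and the deacetylases HDAC1 and HDAC2, at 0.1 µM for 24 h. The other received the vehicle DMSO for the same time, and its labels carry that same dose. Libraries were made for 3 marks, with 2 per mark and treatment. H3K27ac marks active promoters and enhancers by acetylation, H3K4me2 marks both kinds of element and is a substrate of LSD1, and H3K4me3 is found chiefly at promoters and is not. The comparison asked where these marks lie once CoREST is inhibited, in 1 line and at 1 time point. The labels do not say whether the 2 libraries of a group came from separate cultures, so their spread may be technical.

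The 12 peak lists held between 11104 and 41152 peaks, and a stated minimum of reads is the only depth known. With Corin the lists were longer: H3K27ac had 34424 and 30029 peaks against 17599 and 19995 with DMSO, H3K4me2 had 41152 and 40042 against 30896 and 32299, and H3K4me3 had 11757 and 11883 against 11104 and 11343. A change in a gene's covered length therefore stands against a change over all genes, and values from lists cut to the same number of top-scoring peaks per mark, called equal-number lists below, are given for the locus, the counts and those window differences they moved most; lengths over window and body were not recomputed on them. Of 8 myeloid marker genes, 5 had a H3K4me3 peak at the start in both DMSO libraries (CD33, SPI1, CEBPA, CSF3R and FLT3), while none of 4 T cell markers had a peak of any mark within 10 kb of its start. Of 4 B cell markers, CD79A and PAX5 had a H3K4me2 peak at the start in both DMSO libraries, as had NCAM1 of 4 NK cell markers, which also had H3K4me3, and EPOR of 4 erythroid markers. A peak list shows where a mark was called, not how much RNA or receptor the cells made.

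The sequences that carry the main finding are the downstream start of IL21R and a gained region near the upstream one. IL21R (ENSG00000103522.17) lies on the plus strand of chromosome 16 from 27402174 to 27452042. GENCODE places the start of IL21R-201 at 27402174 and that of IL21R-202 at 27427244, 25070 bp downstream inside the gene. The RefSeq promoter of IL21R (GRCh38.p14) belongs to the downstream start and is shown first, at chr16:27427021-27427270. It lies inside the widest gained H3K4me2 region of the 9 genes. The second is the central 300 bases of the gained H3K4me2 region 817 bp before the upstream start, at chr16:27400770-27401069. Both are on the plus strand, 5′ to 3′, and capitals mark motif matches.
IL21R downstream promoter: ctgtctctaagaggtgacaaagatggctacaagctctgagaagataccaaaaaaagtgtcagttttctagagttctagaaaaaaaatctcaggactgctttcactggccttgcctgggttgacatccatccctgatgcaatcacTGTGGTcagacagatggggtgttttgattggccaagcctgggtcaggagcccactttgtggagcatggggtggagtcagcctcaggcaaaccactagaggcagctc
Gained H3K4me2 region upstream of IL21R: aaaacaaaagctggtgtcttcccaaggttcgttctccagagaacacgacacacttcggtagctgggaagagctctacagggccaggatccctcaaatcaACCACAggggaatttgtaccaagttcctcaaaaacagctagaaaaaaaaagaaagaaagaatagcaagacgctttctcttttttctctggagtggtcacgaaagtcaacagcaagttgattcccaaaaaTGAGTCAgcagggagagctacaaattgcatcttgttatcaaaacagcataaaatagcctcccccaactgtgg

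Exact motifs of 6 factors active in myeloid cells were searched on both strands: PU.1 as GAGGAAG, RUNX as TGTGGT, AP-1 as TGANTCA, C/EBP as TTGCNNAA, STAT as TTCNNNGAA and GFI1. The downstream IL21R promoter held 1 match, to RUNX at bases 145 to 150 on the plus strand. The gained region held RUNX at bases 100 to 105 on the minus strand and AP-1 at bases 229 to 235. RUNX letters occur in 11.0% of 35116 RefSeq promoters of the same length and in 29.2% of the central 300 bases of 3832 gained H3K4me2 regions, so such a match is common. PU.1 letters occur in 11.2% and 17.8% of these, and AP-1 letters in 6.57% and 19.1%. Of the 5 regions gained in either mark across the IL4R and IL21R locus, 4 held PU.1 letters, 2 RUNX, 2 AP-1, 1 STAT and none C/EBP or GFI1.

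The widest region gained over these genes lay at the downstream start of IL21R, the chain that pairs with the common gamma chain to bind IL21. The H3K4me2 region from 27426134 to 27428863 on chromosome 16, 2730 bp over an exon and intron of IL21R, was covered over 2566 bp in Corin replicate 1 and 2465 bp in Corin replicate 2, and neither DMSO library had a peak there. It ranked 2 by width among 4090 gained H3K4me2 regions, where gained means a peak in both Corin and neither DMSO library. Its peaks carried scores of 445 and 508, above those of 77.7% and 84.0% of the peaks in their lists. No library had H3K27ac or H3K4me3 there. The region was also gained among top-scoring peaks matched in number and among peaks with a score of at least 100.

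A further 2 gained H3K4me2 regions lay at IL21R. One, from 27430084 to 27431112 in an exon and intron of the gene, was covered over 990 and 1012 bp with Corin. The other, from 27400482 to 27401357, lay between the genes and 817 bp before the upstream start, with 864 and 741 bp. In the equal-number lists the first was gained and the second was kept in Corin replicate 2 alone. At the upstream start itself H3K4me2 was present throughout, in a peak of 1515 and 1686 bp with Corin against 909 and 1080 bp with DMSO. The 2 starts thus differed: the upstream one carried the mark in all 4 libraries and the downstream one with Corin alone.

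Over the 10 kb either side of the 5′ end, IL21R had 3039 and 2824 bp of H3K4me2 with Corin and 909 and 1080 bp with DMSO. The difference of the means was 1937 ± 194 bp (SD of the difference, n = 2 libraries per group), a ratio of 2.95, and stood at percentile 98.1 among 14079 genes with any H3K4me2 peak in the window. The gene body had 5906 and 4757 bp with Corin and 687 and 940 bp with DMSO, a ratio of 6.55. Over window and body together the difference was 5753.5 ± 810 bp, at percentile 99.7. The groups did not overlap in any of these intervals. In the equal-number lists the difference in the window was 976.5 bp, still with separate groups. H3K4me3 was called in no library anywhere over IL21R. H3K27ac was called once, over 237 bp in DMSO replicate 1.

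IL4R (ENSG00000077238.14, plus strand, 27313668 to 27364778) ends 37396 bp before IL21R begins. Unlike IL21R it had H3K4me3 at its start in every library, over 1219 and 1068 bp with Corin and 382 and 774 bp with DMSO. The difference was 565.5 ± 297 bp, a ratio of 1.98 at percentile 96.4 of 11193 genes, and was 369.5 bp without DMSO replicate 1. Its H3K4me2 in the window was 5716 and 5149 bp with Corin against 3620 and 3240 bp with DMSO, a difference of 2002.5 ± 483 bp at percentile 98.3, and of 659 bp within 5 kb. Both marks were separate between the groups. H3K4me2 peaks within 500 bp of the start measured 3057 and 2890 bp against 2479 and 2530 bp, in DMSO replicate 1 as 2 peaks of 567 and 1912 bp that leave the start itself between them. The rest of the window's difference lay in flanking regions, 1 of them an intronic region from 27317938 to 27319292 with 1347 and 1032 bp against 757 and 710 bp. A narrow region from 27321218 to 27321611, also in an IL4R intron, was gained with 394 and 292 bp, but neither Corin library kept it in the equal-number lists. H3K27ac within 10 kb of the start was called in Corin replicate 1 alone, over 894 bp, and in no library in the equal-number lists. Deeper in the body, an intronic region from 27326330 to 27328014 held H3K27ac in all 4 libraries, over 1349 and 1685 bp with Corin and 976 and 1181 bp with DMSO. It overlapped H3K4me2 in all 4 libraries.

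Read as one locus of 158375 bp, from 27303668 to 27462042, IL4R and IL21R had 17413 and 15351 bp of H3K4me2 with Corin in 15 and 13 peaks, and 6912 and 6847 bp with DMSO in 9 and 8 peaks. The difference of 9502.5 ± 1459 bp was a ratio of 2.38. It lay in the IL4R body (5617 and 5300 bp against 3828 and 3771 bp), the space between the genes (4512 and 3913 bp against 1670 and 1824 bp), the IL21R body and the flank before IL4R, where a region from 27304854 to 27305811 had 918 and 935 bp against 384 and 0 bp. H3K27ac covered less of the locus, with 2782 and 2509 bp against 1421 and 1465 bp, a difference of 1202.5 ± 196 bp. In the equal-number lists the differences were 7597.5 bp for H3K4me2 and 629.5 bp for H3K27ac. Of 15 H3K4me2 regions in the locus, 4 were gained, where 9.64% of all regions of the mark were, 7 were present in all 4 libraries and 4 were mixed. The locus was chosen through 1 of these 4.

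**Figure D1:**
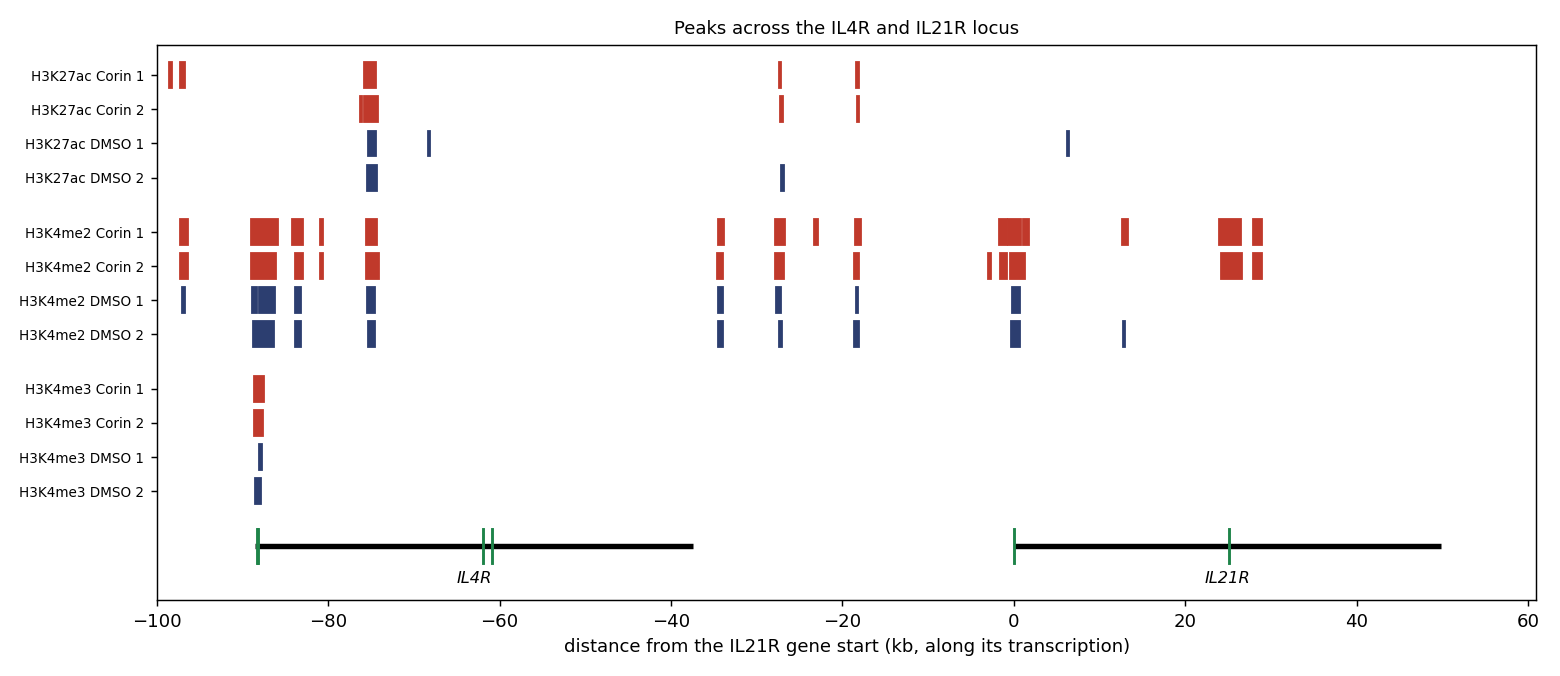
Peaks of each library (rows, red for Corin and blue for DMSO) across the IL4R and IL21R locus, by distance from the upstream IL21R start in kb; black bars are the gene bodies and green ticks annotated transcript starts. The H3K4me2 blocks near 25 kb, over the downstream IL21R start, appear in both Corin rows and in neither DMSO row.

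A single H3K27ac region of the locus was gained, from 27383802 to 27384122 between the genes and 18052 bp before the upstream IL21R start. It was covered over 318 and 288 bp with Corin, and was gained in the equal-number lists too. H3K4me2 was present there in all 4 libraries, over 720 and 651 bp with Corin and 265 and 597 bp with DMSO. The central 300 bases, at chr16:27383812-27384111 on the plus strand, are shown because they alone of the 5 gained stretches searched hold STAT letters, at bases 274 to 282, with PU.1 at bases 215 to 221 on the minus strand. STAT letters occur in 8.92% of 37413 H3K4me2 regions over the same length.
Gained H3K27ac region between IL4R and IL21R: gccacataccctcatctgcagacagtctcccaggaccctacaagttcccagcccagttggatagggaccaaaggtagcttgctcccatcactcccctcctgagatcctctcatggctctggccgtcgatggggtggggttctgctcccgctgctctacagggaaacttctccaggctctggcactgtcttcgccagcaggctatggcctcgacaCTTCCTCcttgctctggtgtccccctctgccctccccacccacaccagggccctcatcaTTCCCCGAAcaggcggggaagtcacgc

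IL2RG (ENSG00000147168.14, minus strand of chromosome X, 71107404 to 71112108), the gamma chain that IL4R and IL21R share, differed in H3K27ac and hardly in H3K4me2. H3K27ac covered 7609 and 6645 bp of its window with Corin and 2475 and 2956 bp with DMSO, a difference of 4411.5 ± 762 bp, a ratio of 2.62 at percentile 99.7 of 10545 genes. H3K4me2 covered 3426 and 3274 bp against 3230 and 3163 bp. That difference of 153.5 ± 117 bp was below the median of all covered genes, at percentile 41.1, was 77.5 bp without Corin replicate 1, and the gap between the groups was narrower than the spread of the Corin libraries. Within 5 kb of the 5′ end the H3K4me2 groups overlapped, and when each gene was ranked within its library IL2RG stood lower with Corin.

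The IL2RG window also holds the starts of CXorf65, MED12 and a readthrough gene (ENSG00000285171), so not all of this signal belongs to IL2RG. At the IL2RG start, the H3K27ac region from 71111320 to 71112534 was covered over 1091 and 1071 bp with Corin and 0 and 730 bp with DMSO. A longer region from 71106050 to 71110279, over the 3′ part of IL2RG and the start of CXorf65, had 3730 and 2920 bp against 1820 and 1876 bp. The gained H3K27ac region from 71118288 to 71119475 (1188 and 232 bp; Corin replicate 1 alone in the equal-number lists) lay at the start of MED12. So did the H3K4me3 of the window, 1024 and 656 bp with Corin and 643 and 752 bp with DMSO. Within 500 bp of the canonical IL2RG start no library had a H3K4me2 or H3K4me3 peak. The H3K27ac difference within 5 kb of the 5′ end was 1794 bp, with separate groups.

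IL13RA1 (ENSG00000131724.11, chromosome X, 118727133 to 118794535), the partner of IL4R in the receptor for IL13, showed the reverse. H3K4me2 covered 4556 and 3647 bp of its window with Corin and 2699 and 2710 bp with DMSO, a difference of 1397 ± 643 bp. H3K4me3 at the start covered 910 and 893 bp against 538 and 690 bp, a difference of 287.5 ± 108 bp; in the equal-number lists it was 69.5 bp, and there and at a score of at least 100 the groups overlapped. H3K27ac was called at the start in no library. A H3K27ac peak 8071 bp upstream, from 118718321 to 118719062, gave 664 and 389 bp against 264 and 234 bp, a difference of 277.5 bp that was 140 bp without Corin replicate 1, and whose direction turned when genes were ranked within each library. With the gene body included the H3K27ac groups overlapped, since DMSO replicate 2 had a peak of 431 bp in an intron.

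**Figure D2:**
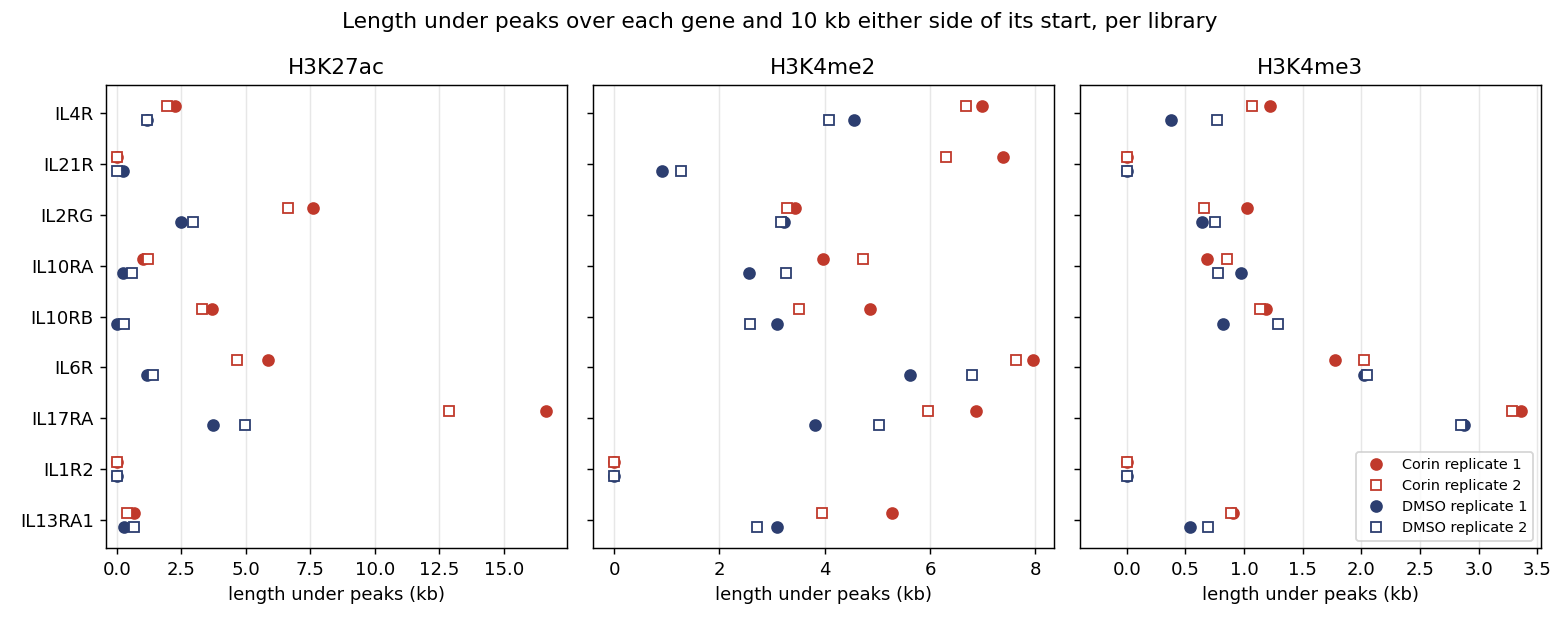
Length under peaks in kb over each gene and 10 kb either side of its start, one point per library (red Corin, blue DMSO; filled circle replicate 1, open square replicate 2). IL21R is separated in H3K4me2 and at 0 in H3K4me3, IL17RA reaches 16622 and 12883 bp of H3K27ac with Corin, and IL1R2 is at 0 throughout.

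The IL10 receptor chains differed from each other in H3K27ac. IL10RB (ENSG00000243646.11, plus strand of chromosome 21, 33266367 to 33311420), the shared chain, had no H3K27ac in its window in either DMSO library and 2288 and 2091 bp with Corin. The difference of 2189.5 ± 139 bp stood at percentile 95.3, and was 949.5 bp in the equal-number lists. Over window and body 3 of 6 H3K27ac regions were gained, where 11.5% of all regions of the mark were. The one nearest the start, from 33264616 to 33266241 (1626 and 565 bp), overlapped the 3′ end of IFNAR2. In Corin replicate 1 its peak ended 126 bp before the start. In Corin replicate 2 its peaks of 313 and 252 bp ended 1320 and 550 bp before the start. A separate H3K27ac peak of 854 bp, from 33266499 to 33267352 inside IL10RB, was called in Corin replicate 2 alone. In the equal-number lists the gained region nearest the start was kept in Corin replicate 2 alone. The region from 33259584 to 33260319, in an intron of IFNAR2, had 662 and 672 bp and was gained there too. H3K4me2 and H3K4me3 were present at the IL10RB start in all libraries. H3K4me2 covered 4069 and 3094 bp of the window with Corin and 2644 and 2132 bp with DMSO, a difference of 1193.5 bp that was 693.5 bp in the equal-number lists and 706 bp without Corin replicate 1. H3K4me3 covered 1187 and 1133 bp against 821 and 1290 bp, with the groups overlapping. IL10RB is also transcribed as part of an IFNAR2 readthrough gene, and peaks cannot be told apart by transcript.

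The promoter of IL10RB is shown for comparison with IL21R, as the 191 bases before the RefSeq start (GRCh38.p14, chr21:33266176-33266366, plus strand). The 2 adjoining PU.1 matches that share 1 base, at bases 64 to 70 and 70 to 76 on the minus strand, are in capitals.
IL10RB promoter: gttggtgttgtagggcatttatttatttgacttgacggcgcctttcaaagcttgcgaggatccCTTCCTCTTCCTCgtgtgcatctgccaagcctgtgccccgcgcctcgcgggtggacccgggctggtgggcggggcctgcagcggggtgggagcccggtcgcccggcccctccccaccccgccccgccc

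IL10RA (ENSG00000110324.12, plus strand of chromosome 11, 117986370 to 118003037), the chain that binds IL10, carried all 3 marks at its start in all libraries. H3K27ac there covered 275 and 783 bp with Corin and 233 and 339 bp with DMSO, so the groups overlapped, though it was longer in both same-numbered pairs (replicate block). They separated once the gene body was included (1022 and 1206 bp against 233 and 608 bp), through a region at the 3′ end from 118002291 to 118003318. H3K4me2 in the window covered 3341 and 4192 bp against 2253 and 2928 bp, a difference of 1176 ± 768 bp at percentile 92.5, and of 750.5 bp without Corin replicate 2. H3K4me3 covered 683 and 855 bp against 978 and 781 bp, with the groups overlapping. No region was gained over IL10RA in any mark.

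IL17RA (ENSG00000177663.15, plus strand of chromosome 22, 17084954 to 17115693) held the most H3K27ac of the 9 genes over window and body, while in the window alone IL2RG held more. Over window and body it had 16622 and 12883 bp in 17 and 16 peaks with Corin, and 3740 and 4959 bp in 6 and 7 peaks with DMSO. The difference of 10403 ± 2781 bp was a ratio of 3.39, at percentile 99.5 of 11956 genes. Most of it lay beyond the start, since the window had 3156 and 2634 bp against 1262 and 1236 bp, a difference of 1646 bp that was 781.5 bp in the equal-number lists. A region from 17113587 to 17119038, which runs past the 3′ end of the gene and thus past this interval into TMEM121B, was present in all libraries, over 5235 and 5404 bp in all with Corin and 1873 and 2646 bp with DMSO. Of 17 H3K27ac regions over the gene 7 were gained, where 11.5% of all regions of the mark were, and the widest, from 17095808 to 17098064 over an exon and intron, had 2257 and 1864 bp and ranked 9 by width among 4798 gained H3K27ac regions. It alone of the 7 was gained in the equal-number lists, where Corin replicate 2 kept 484 bp of it. Of the 7, 5 had no H3K4me2 peak in any library, as had 35.7% of all gained H3K27ac regions.

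At the IL17RA start H3K4me3 formed a single block of 3358 and 3282 bp with Corin and 2878 and 2846 bp with DMSO. The difference of 458 ± 58.3 bp stood at percentile 94.0, and the same difference was found in the equal-number lists. H3K4me2 in the window covered 6213 and 4801 bp against 3169 and 3664 bp, a difference of 2090.5 ± 1058 bp at percentile 98.5. It was 1246.5 bp in the equal-number lists, 790 bp within 5 kb of the 5′ end and 1384.5 bp without Corin replicate 1, with separate groups each time. Its 2 gained H3K4me2 regions lay in an intron, from 17089122 to 17090315 (1098 and 573 bp) and from 17090652 to 17091205 (554 and 219 bp). H3K27ac was absent from both in every library, and the first alone was gained in the equal-number lists.

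**Figure D3:**
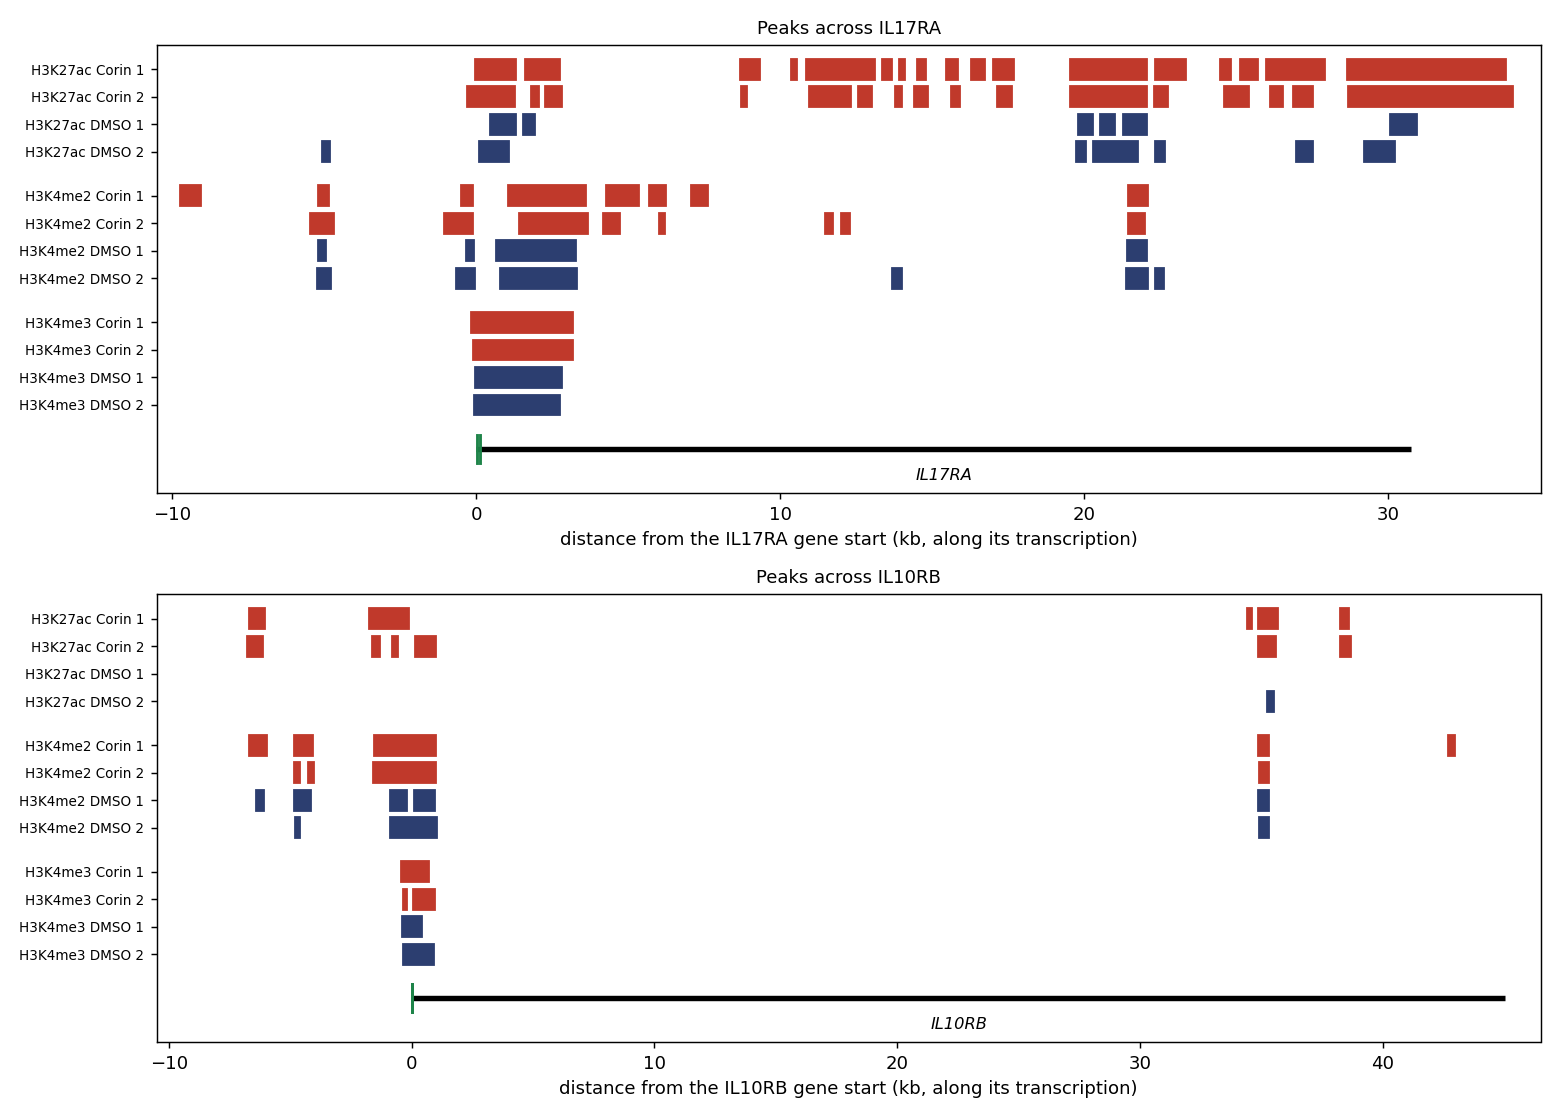
Peaks of each library (red Corin, blue DMSO) over IL17RA (upper panel) and IL10RB (lower panel), by distance from the gene start in kb; black bars are gene bodies and green ticks transcript starts. In the IL17RA body beyond 10 kb H3K27ac peaks are more and longer in the Corin rows than in the DMSO rows, and at IL10RB it lies near the start in the Corin rows alone.

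IL6R (ENSG00000160712.13, plus strand of chromosome 1, 154405193 to 154469450), the chain that binds IL6, had H3K27ac over 4597 and 2814 bp of its window with Corin and 534 and 1408 bp with DMSO. The difference of 2734.5 ± 1404 bp stood at percentile 97.6, and was 1640 bp in the equal-number lists. The 2 gained H3K27ac regions flanked the start, from 154402311 to 154402854 (544 and 246 bp) and from 154407616 to 154408587 (831 and 538 bp), and neither was gained in the equal-number lists. H3K4me2 formed a broad block over the start, in DMSO replicate 1 broken into 3 peaks, and covered 6538 and 6017 bp of the window against 4758 and 5431 bp, a difference of 1183 ± 602 bp at percentile 92.6. H3K4me3 covered 1778 and 2020 bp against 2019 and 2048 bp and the groups overlapped, though IL6R was lower in both same-numbered pairs (replicate block) and when ranked within each library. IL1R2 (ENSG00000115590.14, plus strand of chromosome 2, 101991960 to 102028544), the decoy receptor, had no peak of any mark in any library.

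Over the 9 genes together, 8 had any H3K27ac, 8 any H3K4me2 and 7 any H3K4me3 in the window in at least 1 library. IL1R2 lacked all and IL21R lacked H3K4me3, and the H3K4me3 counted for IL2RG lies at the start of MED12. H3K27ac was longer in both Corin than both DMSO libraries at 5 genes (IL2RG, IL10RB, IL6R, IL17RA and IL13RA1), where 54.5% of covered genes were, and shorter at none, where 0.654% were. H3K4me2 was longer at 8 of 8, against 39.5% of covered genes, and shorter at none, against 3.83%. H3K4me3 was longer at 3 (IL4R, IL17RA and IL13RA1), against 25.7%, and shorter at none, against 8.28%. Counted over window and body, 6, 8 and 3 genes were longer, where 59.1%, 45.8% and 26.0% of covered genes were. The median difference over covered genes of the group was 1046.5 bp for H3K27ac against 444 bp for all covered genes, 1295.25 bp against 233.5 bp for H3K4me2 and 142.5 bp against 63.5 bp for H3K4me3. In the equal-number lists the counts were 5, 8 and 2, where 35.3%, 31.3% and 24.3% of covered genes were longer. In the window with all peaks, covered myeloid markers were longer at 8 of 8 in H3K27ac, 6 of 7 in H3K4me2 and 4 of 6 in H3K4me3. None was shorter, and their median differences were 2403.5, 808 and 314.75 bp. With 2 libraries against 2 an exact two-sided permutation test of any single value could not fall below p = 0.333.

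**Figure D4:**
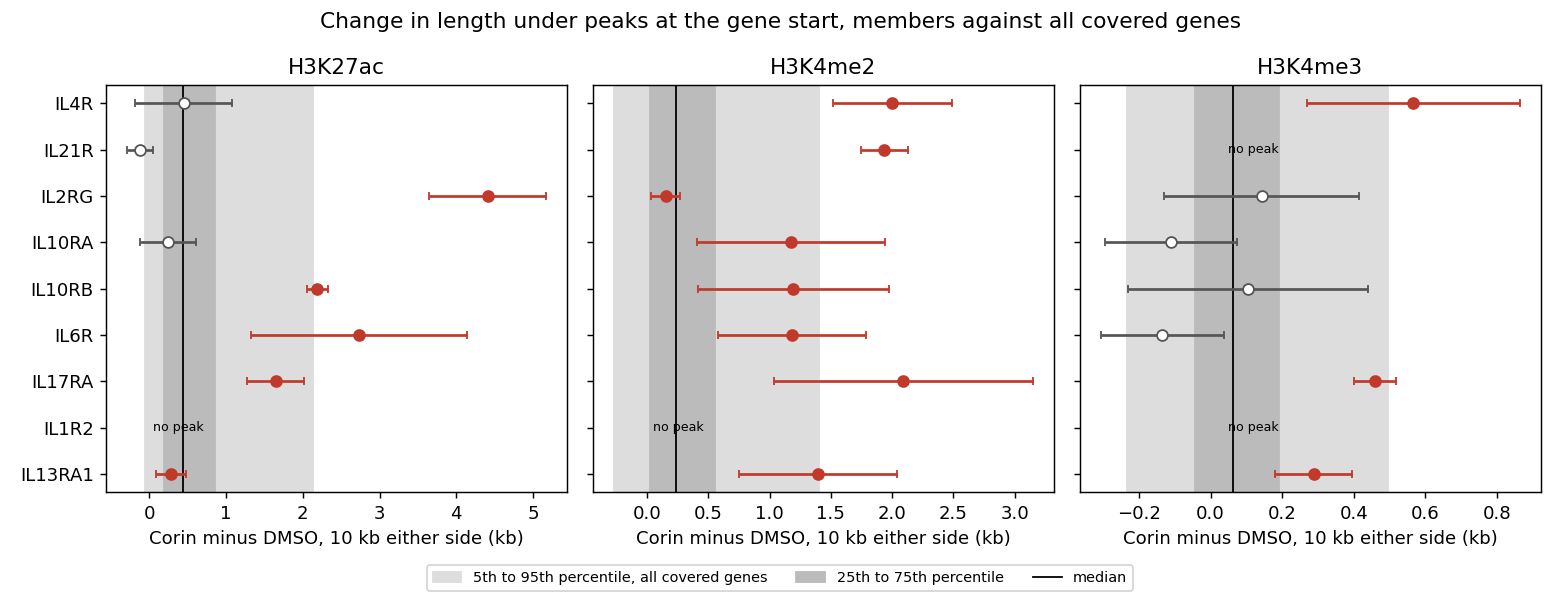
Difference in length under peaks (Corin minus DMSO mean, in kb) within 10 kb either side of each gene's start, with the SD of the difference (n = 2 libraries per group); filled red points have groups that do not overlap, grey bands give the 5th to 95th and 25th to 75th percentiles of all covered genes and the line their median. In H3K4me2 IL4R, IL21R and IL17RA lie above the 95th percentile, and IL2RG lies below the median.

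Counted as regions, the 9 genes held 51 H3K27ac regions, 14 of them gained and none lost, where 11.5% of all regions of the mark were gained and 0.180% lost. The gained region counted for IL2RG lies at the start of MED12. Of 47 H3K4me2 regions 6 were gained and none lost, against 9.64% and 0.158%. All 7 H3K4me3 regions were present in all 4 libraries, where 1.49% were gained and 0.289% lost. Of the 14 and 6, 3 and 3 were gained in the equal-number lists, which in all gave 5 gained H3K27ac and 3 gained H3K4me2 regions, where 4.49% and 3.91% of all regions were gained. None of the 6 gained H3K4me2 regions had H3K27ac in any library, which held for 62.1% of the 4090 gained in the genome, and none had H3K4me3, which held for 99.0%. One of the 6 covered a protein-coding start, the downstream one of IL21R, as did 2.13% of all. The genes were chosen through that same region, so the choice itself put it into this count and among the 6. Of the 14 gained H3K27ac regions 6 had no H3K4me2 in any library and 4 had it in all 4, against 35.7% and 37.9% of all.

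Base composition at the start followed H3K4me3 across the group. The ratio of observed to expected CpG within 500 bp of the canonical start was 0.269 at IL21R, 0.189 at IL2RG and 0.205 at IL1R2, and these 3 had no H3K4me3 there. The other 6 genes had ratios between 0.689 (IL6R) and 0.906 (IL4R) and H3K4me3 in all 4 libraries. Over 20046 genes, 3.62% of the 4950 with a ratio under 0.4 and 62.3% of the 15096 others had H3K4me3 in all 4 libraries. IL21R was among the 286 low-CpG genes (5.78% of them) with H3K4me2 in all 4 libraries and no H3K4me3 in any. Over all 20046 genes 1548 (7.72%) had this pattern.

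The genes whose 12 window values lay closest to those of IL21R were CDH1, TMA7B and STAT6, with mean absolute differences of 53.6, 59.1 and 90.8 bp over the 12 libraries. CDH1 encodes the adhesion protein E-cadherin, and STAT6 is the transcription factor that IL4R activates. STAT6 had 2961 and 2641 bp of H3K4me2 with Corin and 1084 and 1496 bp with DMSO, and no peak of the other marks within 10 kb of its 5′ end; another annotated start of STAT6 had both in the 2 DMSO libraries. The closest to IL4R were ZBTB24 at 209 bp and CXCL16 and ZMYND15 at 234 bp, the last pair with the same values in every library. CXCL16 is a chemokine.

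Among 31 other interleukin receptor subunits 13 had H3K27ac in the window, and 7 of these were longer with Corin and none shorter, with a median difference of 482 bp. For H3K4me2 it was 20, with 11 longer and 1 shorter and a median of 462.5 bp, and for H3K4me3 10, with 1 longer and none shorter and a median of 16.75 bp. Over all covered genes 54.5%, 39.5% and 25.7% were longer. IL31RA, a receptor chain for IL31, had 6767 and 6734 bp of H3K4me2 with Corin and 2770 and 3270 bp with DMSO, and 4534 and 3005 bp of H3K27ac against 0 and 264 bp. IL12RB1, a chain shared by the receptors of IL12 and IL23, had 4626 and 4429 bp of H3K4me2 against 2685 and 2950 bp. Its partner IL12RB2 was the 1 shorter gene, with 0 bp in both Corin libraries and 282 and 239 bp with DMSO. SIGIRR, an inhibitory receptor of the IL1 family, was the 1 gene longer in H3K4me3, with 2413 and 2330 bp against 2007 and 1895 bp. Its H3K27ac covered 2837 and 2253 bp against 1659 and 1568 bp.

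Of 21 genes that pass on the signal, 16 had H3K27ac with 8 longer and none shorter, 21 had H3K4me2 with 11 longer and none shorter, and 18 had H3K4me3 with 2 longer and 1 shorter. The shares longer over all covered genes, 54.5%, 39.5% and 25.7%, stand beside these. Their medians were 486.25, 512 and -116 bp. PTPN6, a phosphatase that dampens cytokine receptors, had 7967 and 7222 bp of H3K27ac with Corin and 3134 and 3897 bp with DMSO. IRAK1, a kinase downstream of IL1 receptors, had 4249 and 4558 bp against 890 and 2120 bp. In H3K4me2 the largest differences were at the kinase TYK2 (4813 and 3735 bp against 2556 and 2953 bp) and STAT6. In H3K4me3 the kinase gene JAK2 was shorter (1773 and 1532 bp against 1935 and 1873 bp), while SOCS1, an inhibitor of JAK kinases, was longer (2156 and 2427 bp against 2005 and 1977 bp), as was JAK1 (2200 and 2004 bp against 1941 and 1979 bp).

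Of 17 ligand genes 4 had H3K27ac and 7 had H3K4me2, with 4 longer and none shorter in each mark, where 54.5% and 39.5% of all covered genes were longer, and none had H3K4me3. The median differences were 396.75 and 925.5 bp. IL1B and IL1A, whose products bind IL1R2, had 4297 and 3871 bp of H3K4me2 against 1260 and 1573 bp, and 2529 and 2288 bp against 301 and 271 bp. IL1A also had H3K27ac, over 1098 and 804 bp with Corin and 0 and 422 bp with DMSO. IL10 had 468 and 382 bp of H3K27ac with Corin and is listed at 0 in both DMSO libraries.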

How the data were processed

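CUT&RUN peak lists of 12 of 19 libraries were analysed; the other 7 (all-trans retinoic acid with Corin, LSD1 and IgG) were not analysed here. Per the submitters' processing notes, reads were handled with Trim Galore, Bowtie2, Picard and MACS2 on hg38; their parameters and any control are not given in the sources used here. There is 1 list per library, so peaks were called separately. The authors deposited, for each peak, a position and a score of at least 50, whose definition is not stated; peaks were ranked and filtered by it inside their own list. None of 292523 peaks ended past a hg38 chromosome end.

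With Python 3.11.15, numpy 2.4.6 and scipy 1.17.1, the bp under peaks were summed per gene and library, and the 4 lists of a mark were merged into regions where peaks overlapped by at least 1 bp. Positions count from 1. A mean difference is given with the SD of the difference (square root of the summed variances of both groups, 2 libraries each). A gene was covered if any library had a peak in the interval; percentiles are among covered genes. The scripts were tested on simulated peaks. Read depth beyond the stated minimum is unknown, so no interval or floor that needs it was computed. RefSeq promoters were matched by symbol for 8 of 9 genes. The genes and lists were chosen with earlier results of these data known. Named genes were the 9, the 2 largest rises and 1 largest fall per list and mark among separate groups, the 3 closest to IL21R and to IL4R, every gained or lost region of their locus, and the widest gained ones elsewhere; other regions and the CpG comparison were chosen after their values were seen. Alternatives were a 5 kb window, the body, every annotated start, lists matched in number (17599, 30896 and 11104 peaks), a score of at least 100, ranks within a library, 50% of a region covered, a replicate block and each library left out.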

Additional observations from a re-analysis of the deposited data

How the results depend on the processing

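Of 78 alternative values for the counts of genes, the locus lengths and the gained regions, 13 were labelled as moved and 65 as the same. That label is wide: it took in 19 gained H3K27ac regions with 50% of a region covered (15.1% of all regions) and 21 without DMSO replicate 2 (20.6%), against 14. It also took in gained H3K4me3 regions, at 0 throughout, and locus lengths with a replicate block, which could not change. The number of genes longer with Corin lay between 5 and 6 for H3K27ac, at 8 for H3K4me2 and between 3 and 5 for H3K4me3 when each library was left out, where 63.1% to 78.2%, 47.0% to 66.1% and 36.8% to 49.5% of covered genes were longer. The 5 for H3K4me3 came without DMSO replicate 2. Shorter genes also appeared: 1 in H3K27ac without DMSO replicate 2, and in H3K4me3 2 without Corin replicate 2, 2 without DMSO replicate 1 and 1 without DMSO replicate 2. None was shorter in H3K4me2. Without DMSO replicate 1, 2 regions were lost in each of H3K27ac and H3K4me2, and without DMSO replicate 2, 2 in H3K27ac. Shares over all genes and regions are not given for these. Over the locus, H3K27ac differed by 352 bp on gene bodies only, 629.5 bp in equal-number lists and 852 bp at a score of at least 100, and H3K4me2 by 6177 bp on gene bodies and 7597.5 bp in equal-number lists. Gained H3K27ac regions numbered 5 in equal-number lists (4.49% of all regions), 7 at a score of at least 100 (14.7%), and between 16 and 24 with 1 library left out (16.4% to 42.6%; 24 without either Corin library, 33.8% and 42.6%). Gained H3K4me2 regions numbered 3 in equal-number lists (3.91%) and between 6 and 15 with 1 library left out (11 without Corin replicate 1, 18.4%, and 15 without Corin replicate 2, 22.9%). Fewer libraries have to share a region in these counts. Ranked within each library, 4, 7 and 3 genes stood higher with Corin in H3K27ac, H3K4me2 and H3K4me3 (19.8%, 17.8% and 14.8% of covered genes) and 2, 2 and 1 lower: IL21R in H3K27ac (-21.8 percentile points), IL2RG in H3K4me2, IL6R in H3K4me3, and in the first 2 marks IL1R2, which has no peak. IL13RA1 in H3K27ac moved by -3.08 points and IL2RG in H3K4me2 by -2.99; the cause was not tested. With a replicate block, a gene counted as longer if it was so in both same-numbered pairs. So counted, 6, 8 and 3 genes were longer for H3K27ac, H3K4me2 and H3K4me3 (65.8%, 49.9% and 37.2% of covered genes). IL10RA was the added H3K27ac gene, and IL6R was shorter in H3K4me3. A block cannot change a difference of means, so the locus differences of 1202.5, 9502.5 and 565.5 bp are the main values again. Deviations of same-numbered libraries from their group means correlated at 0.212, 0.230 and 0.203 over 20046 genes, with 2 pairs per mark, and nothing in the labels ties a number to a culture or day. Peak lists without read counts limit what can be said of a mark called in 1 library and not in another.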
